A study of Mus musculus with 16 samples.

Results

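Lysosomal genes were followed in mouse liver, with 35 genes chosen by name: 22 hydrolases, 9 membrane proteins, 3 soluble helper proteins and the transcription factor Tfeb. They were chosen with earlier results of these data known. Each of the 35 was measured by 1 probe set, among 19938 genes measured in all. The study profiled liver RNA of 16 male mice aged 4 months on Affymetrix gene arrays, with 1 array per liver and 4 livers in each of 4 groups. All mice carried the transgene TgINS-MCK-Mut, in which the muscle creatine kinase promoter supplies methylmalonyl-CoA mutase to muscle, and at the Mut locus itself they were either heterozygous (Mut +/-) or mutant (Mut -/-). The groups were unfasted heterozygotes, unfasted mutants, heterozygotes fasted for 12 hours and mutants fasted for 8 to 12 hours, so genotype and length of the fast cannot be told apart in the fasted comparison. The study concerns methylmalonic acidemia, the disease caused by loss of this mitochondrial enzyme, which completes the breakdown of several amino acids and of fatty acids of odd length.

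Lysosomes are acidic compartments that digest proteins, lipids and glycans delivered by endocytosis and autophagy. Their soluble hydrolases work inside the lumen, while heavily glycosylated membrane proteins line, supply and position the compartment, and a proton pump keeps it acidic. The factor TFEB and its relatives of the MiT/TFE family switch on many of these genes when nutrients are scarce, through E-box elements of the type CACGTG in their promoters. In liver, both hepatocytes and resident macrophages (Kupffer cells) are rich in lysosomes, so a liver extract mixes both sources. In such bulk RNA, more cells of a type and more RNA per cell cannot be told apart.

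Promoter sequences are shown for 5 genes that the results turn on: Cd63 and Gpnmb, whose genotype differences were the widest of the 35 in fasted liver, Gaa and Gla, which rose with fasting in mutants, and Lamp1, which has the most CACGTG letters. Each sequence holds the 250 bases before the annotated start, 5′ to 3′ on the gene's strand, from RefSeq on GRCm38.p6, with CACGTG in capitals. They lie at chr10:128909095-128909344 (plus strand), chr6:49036268-49036517 (plus strand), chr11:119267713-119267962 (plus strand), chrX:134601006-134601255 (minus strand) and chr8:13158911-13159160 (plus strand), in that order.
Cd63: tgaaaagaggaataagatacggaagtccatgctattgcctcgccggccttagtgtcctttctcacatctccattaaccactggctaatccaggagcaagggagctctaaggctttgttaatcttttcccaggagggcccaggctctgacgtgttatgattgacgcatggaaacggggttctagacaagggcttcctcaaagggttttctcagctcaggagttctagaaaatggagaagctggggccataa
Gpnmb: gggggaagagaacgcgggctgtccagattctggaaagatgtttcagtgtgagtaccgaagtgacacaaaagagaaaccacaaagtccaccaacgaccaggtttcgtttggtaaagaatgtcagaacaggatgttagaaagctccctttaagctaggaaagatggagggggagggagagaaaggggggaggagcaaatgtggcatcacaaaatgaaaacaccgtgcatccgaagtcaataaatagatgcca
Gaa: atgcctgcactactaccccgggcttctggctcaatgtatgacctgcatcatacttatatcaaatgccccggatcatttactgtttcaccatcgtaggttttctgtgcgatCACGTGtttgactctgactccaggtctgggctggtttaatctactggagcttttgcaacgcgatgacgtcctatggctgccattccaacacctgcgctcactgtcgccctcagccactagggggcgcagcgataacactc
Gla: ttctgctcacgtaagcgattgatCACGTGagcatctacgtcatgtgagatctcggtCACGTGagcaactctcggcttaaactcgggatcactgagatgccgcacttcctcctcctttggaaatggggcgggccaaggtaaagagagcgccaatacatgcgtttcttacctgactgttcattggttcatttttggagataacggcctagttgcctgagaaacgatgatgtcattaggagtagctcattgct
Lamp1: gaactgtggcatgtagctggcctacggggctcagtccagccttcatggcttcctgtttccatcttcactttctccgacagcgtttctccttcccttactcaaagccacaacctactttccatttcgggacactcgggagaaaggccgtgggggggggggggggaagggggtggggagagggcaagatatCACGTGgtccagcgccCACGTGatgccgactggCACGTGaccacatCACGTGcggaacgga

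Lamp1 holds CACGTG 4 times, Gla 2 times and Gaa 1 time, and the letters are not in the windows of Cd63 or Gpnmb. Of the 35 genes, 30 had a promoter entry, with 35 windows because Ctsa, Lgmn, Psap and Tfeb have several starts; Ctsb, Ctsh, Galns, Asah1 and Npc1 had none. CACGTG, which reads the same on both strands, was in 9 of the 35 windows (25.7%) against 6.02% of all 32851 windows of this length, without matching for base composition. The 9 genes were Ctsa, Ctsd, Ctsl, Gaa, Gla, Lamp1, Lgmn, Mcoln1 and Naglu. Scarb2, which also rose with fasting in mutants, and Grn, which rose in heterozygotes, had windows without CACGTG. The longer TCACGTGA, which contains CACGTG, was in 4 windows (11.4% against 0.785%), those of Ctsa, Ctsd, Gla and Mcoln1. Further letters were searched on both strands. The M-box letters TCATGTG were in 3 windows (8.57% against 3.25%), those of Scarb2, Grn and Gla. The AP-1 letters TGACTCA were in 3 (8.57% against 4.46%), those of Psap, Cd68 and Neu1. The PU.1 letters GAGGAAGT were in 2 (5.71% against 2.44%), those of Ctsc and Gla. A match describes letters and is not a bound site.

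Correlations between arrays of a group lay between 0.986 and 0.998. The mutated gene, Mmut, was lower on all 8 mutant arrays, and fell by 1.78 ± 0.11 log2 units unfasted and fell by 1.80 ± 0.11 fasted. The tissue label held, with albumin between 13.49 and 13.66 on the log2 scale of each array. Unfasted mutant replicate 1 carried pancreatic acinar transcripts, with 10 such markers averaging 10.99 against 6.87 to 6.94 in the other 3 arrays of its group. Fasted mutant replicate 1 was high in adipose markers, with 5 of them averaging 7.78 against 6.86 to 7.01 in the other 3, and leaving it out gave 11 of the 35 genes called between the fasted genotypes, the same count as with it. The spread between separate mice is the error given throughout, as SD for levels and as standard error (SE) for differences.

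Unfasted mutants differed from unfasted heterozygotes in 11 of the 35 genes. The test was limma's moderated test over all genes with Benjamini-Hochberg adjustment, and "called" means an adjusted p under 0.05. Of the 35, 7 were higher and 4 lower (31.4%), where 7.94% of all genes were called, 4.25% higher and 3.69% lower. Because the 35 were chosen with earlier results of these data known, such shares describe the list and are no independent test of it. The median difference of the 35 was 0.12 log2 units against 0.01 for all genes. Higher were the hydrolase genes Hexa, Asah1, Lgmn and Ctsz, the membrane protein gene Cd63 and the helper genes Npc2 and Grn. Lower were the cathepsin genes Ctsc and Ctsh and the membrane protein genes Lamp2 and Scarb2. In a fit of only these 8 arrays 3 genes were called (Hexa, Asah1 and Cd63). Leaving out unfasted heterozygous replicate 3 left 4 called genes, and leaving out replicate 4 of that group left 6. Leaving out the array with acinar transcripts gave 12.

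Fasted mutants also differed from fasted heterozygotes in 11 genes, 9 higher and 2 lower (31.4%). The background was wider here, with 13.6% of all genes called, 8.62% higher and 5.01% lower. The median of the 35 was 0.15 against -0.02 for all genes. Higher were Hexa, Asah1, Lgmn, Ctsl and Ctss among the hydrolases and Cd63, Gpnmb, Cd68 and Laptm5 among the membrane proteins, and lower were Ctsh and Lamp2. Both comparisons called 6 genes, Hexa, Asah1, Lgmn, Cd63, Ctsh and Lamp2, each with the same sign, and they share no array. How many of all genes were called in both with the same sign was not counted, so these 6 only describe the list. Leaving out any 1 array gave between 10 and 13 called genes in the fasted comparison.

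**Figure D1:**
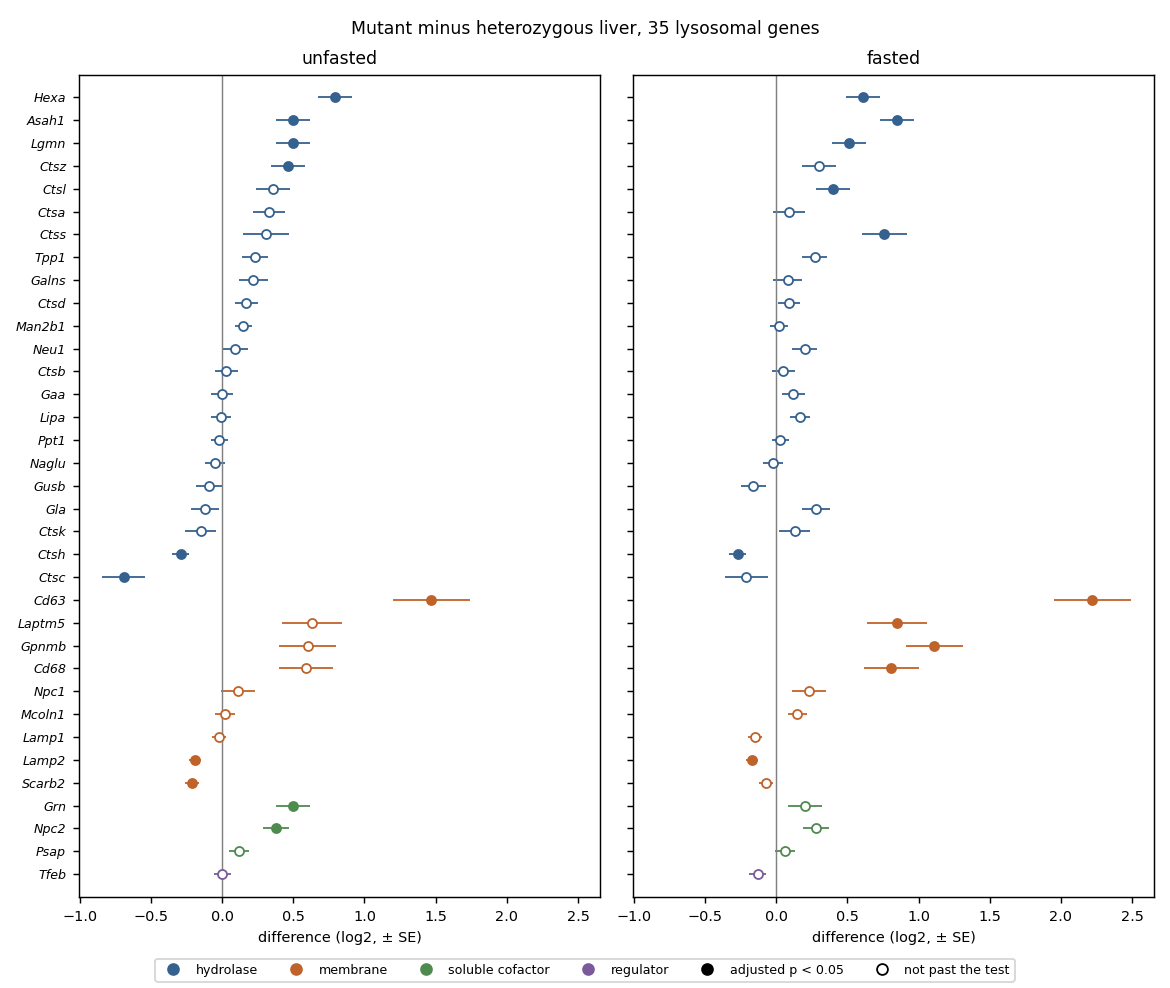
Difference between mutant and heterozygous liver (log2 units, ± SE from the limma fit, 4 arrays per group) for each of the 35 genes, unfasted at left and fasted at right, grouped by class and ordered by the unfasted difference. Filled points passed an adjusted p of 0.05; Cd63 lies farthest to the right in both panels, at 1.47 and 2.22, and Ctsc farthest to the left when unfasted, at -0.69.

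Across both feeding states, 8 genes had all 8 mutant arrays on one side of all 8 heterozygous ones, which was true of 3.25% of all genes. Cd63, Hexa, Asah1, Lgmn, Gpnmb and Npc2 lay above, and Ctsh and Lamp2 lay below. No gene of the 35 was called for a genotype difference that changed with fasting (the interaction, where 0.01% of all genes were called). At an unadjusted p under 0.05 the interaction had 3 of the 35, Gla, Ctsc and Asah1, all positive. Of all 19938 genes, 1051 were positive and 1138 negative at that threshold, a larger share than that of the 35. Every alternative that could give an interaction also called none.

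The widest difference in each feeding state was in a membrane protein, Cd63. The gene encodes a tetraspanin of late endosomes, lysosomes and exosomes. It read 8.85, 9.04, 8.60 and 8.47 in the 4 unfasted heterozygotes and 10.34, 9.89, 10.52 and 10.11 in the 4 unfasted mutants, in log2 units as all levels here. After the fast it read 8.00, 8.51, 9.30 and 7.63 in heterozygotes and 10.78, 10.77, 10.20 and 10.56 in mutants. Every mutant liver lay above every heterozygous one, and the fasted heterozygotes were the most scattered group, with an SD of 0.73. Cd63 rose by 1.47 ± 0.27 in the unfasted comparison (2.78-fold, adjusted p = 0.0043) and by 2.22 ± 0.27 in the fasted one (4.65-fold, adjusted p = 0.00018). Both calls held without any 1 of the 16 arrays.

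Gpnmb encodes a transmembrane glycoprotein of lysosomes and melanosomes that is known from lipid-laden macrophages. It read 6.59, 6.55, 6.65 and 6.70 in unfasted heterozygotes and 7.07, 6.95, 7.88 and 7.01 in unfasted mutants, where replicate 3 stood apart. In the fasted groups it read 6.43, 6.64, 6.80 and 6.68 in heterozygotes and 8.24, 7.96, 7.37 and 7.42 in mutants. The groups did not overlap in either feeding state, and the mutants were the more scattered. Gpnmb rose in fasted mutants by 1.11 ± 0.20 (2.16-fold, adjusted p = 0.0025). The unfasted difference of 0.60 ± 0.20 did not pass (adjusted p = 0.073). The deposited table holds no detection calls, so it is not known whether Gpnmb was above background in heterozygotes, and its difference can be understated.

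Cd68 and Laptm5 are lysosomal membrane proteins known mainly from macrophages and other blood cells. Cd68 read 9.07, 9.07, 8.32 and 8.71 in unfasted heterozygotes and 9.21, 9.51, 9.80 and 9.02 in unfasted mutants. It read 8.95, 8.57, 8.48 and 8.41 in heterozygotes and 9.65, 9.28, 9.57 and 9.11 in mutants after the fast. Laptm5 read 9.66, 9.70, 8.93 and 9.23 in unfasted heterozygotes and 9.77, 10.07, 10.54 and 9.66 in unfasted mutants. It read 9.55, 9.18, 9.03 and 8.99 in heterozygotes and 10.34, 9.94, 10.14 and 9.73 in mutants after the fast. For both genes the unfasted groups overlapped and the fasted groups did not. Cd68 rose by 0.81 ± 0.19 (adjusted p = 0.012) and Laptm5 by 0.85 ± 0.21 (adjusted p = 0.013) in fasted mutants. The unfasted differences were 0.59 ± 0.19 and 0.63 ± 0.21 and did not pass (adjusted p = 0.07 and 0.072). Of 23 macrophage markers, 15 were called in fasted mutants (65.2% against 13.6% of all genes, median 0.64) and none in unfasted ones (median 0.28). The part of macrophages in the values of Cd68, Laptm5, Gpnmb and Ctss was not tested.

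By contrast, Lamp2 was lower in mutants in both states and Scarb2 in the unfasted one, and Lamp1 did not pass the test. Lamp2, a main glycoprotein of the lysosomal membrane that also serves chaperone-mediated autophagy, read 13.00, 13.04, 13.09 and 13.03 in unfasted heterozygotes and 12.87, 12.85, 12.76 and 12.93 in unfasted mutants. It read 12.96, 13.00, 13.09 and 13.02 in fasted heterozygotes and 12.84, 12.87, 12.84 and 12.83 in fasted mutants. The shift was small and the arrays tight, with every mutant below every heterozygote. Lamp2 fell by 0.19 ± 0.04 unfasted (adjusted p = 0.016) and by 0.17 ± 0.04 fasted (adjusted p = 0.016). The unfasted call was lost without heterozygous replicate 3 (adjusted p = 0.064) and the fasted one without fasted heterozygous replicate 3. A second quantile normalization also ended the unfasted call, at -0.12 (adjusted p = 0.084).

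Scarb2 encodes LIMP-2, a membrane receptor that carries glucocerebrosidase to lysosomes. It read 11.27, 11.17, 11.16 and 11.12 in unfasted heterozygotes and 11.06, 10.94, 10.94 and 10.94 in unfasted mutants, which did not overlap. It fell by 0.21 ± 0.05 in unfasted mutants (adjusted p = 0.02), a call lost without unfasted mutant replicate 2 or heterozygous replicate 1 or 3 and with a second quantile normalization (-0.16, adjusted p = 0.051). After the fast it read 11.34, 11.32, 11.27 and 11.27 in heterozygotes and 11.24, 11.27, 11.25 and 11.16 in mutants, a difference of -0.07 ± 0.05 (adjusted p = 0.41). Lamp1, the other abundant glycoprotein of this membrane, read 12.26, 12.25, 12.30 and 12.31 in unfasted heterozygotes and 12.23, 12.17, 12.26 and 12.37 in unfasted mutants. It read 12.26, 12.33, 12.28 and 12.35 in heterozygotes and 12.03, 12.22, 12.21 and 12.16 in mutants after the fast. Its groups overlapped when unfasted and not when fasted. Its difference was -0.02 ± 0.05 (adjusted p = 0.88) unfasted and -0.15 ± 0.05 (adjusted p = 0.074) fasted. Npc1, the cholesterol exporter, and Mcoln1, a calcium channel of lysosomes, had differences of 0.11 ± 0.12 and 0.02 ± 0.07 unfasted and 0.23 ± 0.12 and 0.15 ± 0.07 fasted, none past the test.

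**Figure D2:**
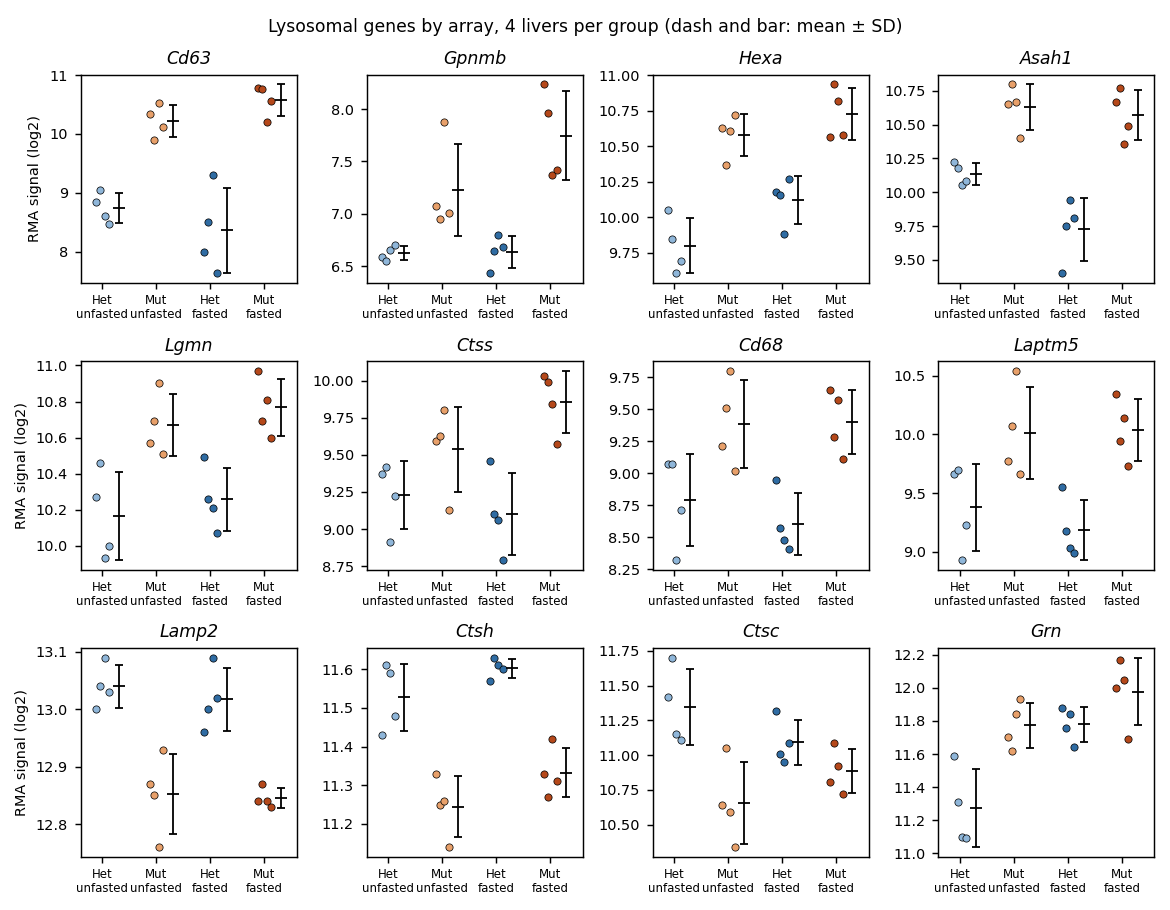
Level of 12 lysosomal genes on each array (RMA signal, log2 units; each panel has its own range), with 4 livers per group as points and the group mean ± SD as the dash and bar beside them. For Cd63, Gpnmb, Hexa, Asah1 and Lgmn all 8 mutant livers lie above all 8 heterozygous ones, and for Lamp2 and Ctsh all 8 lie below.

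Among enzymes that cut glycans and lipids, Hexa and Asah1 rose in mutants in both feeding states. Hexa encodes the alpha subunit of beta-hexosaminidase, which degrades GM2 ganglioside. It read 10.05, 9.85, 9.61 and 9.69 in unfasted heterozygotes and 10.63, 10.37, 10.61 and 10.72 in unfasted mutants. It read 10.18, 10.16, 9.88 and 10.27 in heterozygotes and 10.57, 10.94, 10.82 and 10.58 in mutants after the fast. No heterozygous liver reached the lowest mutant one. Hexa rose by 0.79 ± 0.12 unfasted (1.72-fold, adjusted p = 0.0011) and by 0.61 ± 0.12 fasted (adjusted p = 0.0037), and both calls held without any 1 array.

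Asah1, acid ceramidase, read 10.22, 10.18, 10.05 and 10.08 in unfasted heterozygotes and 10.65, 10.80, 10.67 and 10.40 in unfasted mutants. In the fasted groups it read 9.40, 9.75, 9.94 and 9.81 in heterozygotes and 10.67, 10.77, 10.36 and 10.49 in mutants. Mutants were at much the same level in both states, while fasted heterozygotes lay below unfasted ones. Asah1 rose by 0.50 ± 0.12 (adjusted p = 0.017) unfasted and by 0.85 ± 0.12 (adjusted p = 0.00047) fasted. The fasting difference of heterozygotes, -0.41 ± 0.12 (adjusted p = 0.1), and the interaction, 0.36 ± 0.16 (adjusted p = 0.45), did not pass. The unfasted call was lost without unfasted mutant replicate 2 or heterozygous replicate 3 or 4.

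The other glycan and lipid enzymes were not called between genotypes. Gaa (acid alpha-glucosidase, which digests glycogen), Gla (alpha-galactosidase A), Gusb (beta-glucuronidase), Galns and Naglu (enzymes of keratan and heparan sulfate breakdown), Neu1 (a sialidase), Man2b1 (alpha-mannosidase), Lipa (acid lipase) and Ppt1 (a thioesterase that removes palmitate from proteins) had unfasted differences from -0.12 (Gla) to 0.22 (Galns). Their fasted differences ran from -0.16 (Gusb) to 0.28 (Gla). Lipa, for example, differed by -0.01 ± 0.07 unfasted, with a 95% interval of -0.17 to 0.15.

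The proteases moved in both directions. Legumain, encoded by Lgmn, cuts after asparagine and processes cathepsins. It read 10.27, 10.46, 9.93 and 10.00 in unfasted heterozygotes and 10.57, 10.69, 10.90 and 10.51 in unfasted mutants. It read 10.49, 10.26, 10.21 and 10.07 in heterozygotes and 10.97, 10.69, 10.81 and 10.60 in mutants after the fast. All mutants lay above all heterozygotes by a narrow gap. Lgmn rose by 0.50 ± 0.12 (adjusted p = 0.022) unfasted and 0.51 ± 0.12 (adjusted p = 0.014) fasted, and the unfasted call was lost without unfasted mutant replicate 2 or 3 or heterozygous replicate 3 or 4.

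Ctsz, a cathepsin that trims protein ends, read 11.49, 11.75, 11.42 and 11.36 in unfasted heterozygotes and 11.95, 11.59, 12.08 and 12.23 in unfasted mutants, which overlapped. In the fasted groups it read 11.86, 11.79, 11.64 and 11.89 in heterozygotes and 12.12, 12.19, 12.12 and 11.92 in mutants. It rose by 0.46 ± 0.12 (adjusted p = 0.027) unfasted, a call lost without replicate 3 or 4 of either unfasted group and with array weights (0.37, adjusted p = 0.072), and its fasted difference was 0.30 ± 0.12 (adjusted p = 0.11). Ctsl, an endopeptidase, read 11.65, 11.73, 11.82 and 11.82 in unfasted heterozygotes and 12.23, 12.00, 11.88 and 12.37 in unfasted mutants. It read 11.86, 11.86, 12.28 and 11.84 in heterozygotes and 12.25, 12.64, 12.33 and 12.24 in mutants after the fast. The fasted heterozygotes overlapped the mutants through replicate 3 of the heterozygotes. Ctsl rose by 0.40 ± 0.12 (adjusted p = 0.036) in fasted mutants, a call lost without fasted mutant replicate 2 or 3 or heterozygous replicate 1, 2 or 4 and with arrays centred on their medians (adjusted p = 0.054), and its unfasted difference was 0.36 ± 0.12 (adjusted p = 0.077).

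Ctss and Ctsk lie next to each other in the genome, with no protein-coding gene between them in the RefSeq annotation. Ctss, the cathepsin of antigen-presenting cells, read 9.37, 9.42, 8.91 and 9.22 in unfasted heterozygotes and 9.59, 9.63, 9.80 and 9.13 in unfasted mutants. It read 9.46, 9.10, 9.06 and 8.79 in heterozygotes and 10.03, 9.99, 9.84 and 9.57 in mutants after the fast. The fasted groups did not overlap. Ctss rose by 0.76 ± 0.16 (adjusted p = 0.0067) in fasted mutants and differed by 0.31 ± 0.16 (adjusted p = 0.29) when unfasted. Ctsk, the cathepsin of osteoclasts, differed by -0.15 ± 0.11 (adjusted p = 0.46) unfasted and 0.13 ± 0.11 (adjusted p = 0.43) fasted.

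Ctsc and Ctsh were the proteases that fell. Ctsc, dipeptidyl peptidase I, which activates granule proteases of immune cells, read 11.42, 11.70, 11.15 and 11.11 in unfasted heterozygotes and 10.64, 11.05, 10.59 and 10.34 in unfasted mutants. It read 11.32, 11.01, 10.95 and 11.09 in fasted heterozygotes and 10.81, 11.09, 10.92 and 10.72 in fasted mutants, which overlapped. Ctsc fell by 0.69 ± 0.15 unfasted (adjusted p = 0.011), with no overlap between the groups, and its fasted difference was -0.21 ± 0.15 (adjusted p = 0.36). Ctsh, an aminopeptidase, read 11.43, 11.61, 11.59 and 11.48 in unfasted heterozygotes and 11.33, 11.25, 11.26 and 11.14 in unfasted mutants. In the fasted groups it read 11.57, 11.63, 11.61 and 11.60 in heterozygotes and 11.33, 11.27, 11.42 and 11.31 in mutants. Mutants were the lower in both states. Ctsh fell by 0.29 ± 0.06 unfasted (adjusted p = 0.0076) and by 0.27 ± 0.06 fasted (adjusted p = 0.0068). Ctsc when unfasted and Ctsh in both states kept their calls without any 1 array.

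Ctsd, Ctsb, Tpp1 and Ctsa were not called between genotypes. Ctsd, the main aspartic protease of lysosomes, read 11.63, 11.54, 11.80 and 11.65 in unfasted heterozygotes and 11.73, 11.68, 11.92 and 11.95 in unfasted mutants. It read 11.91, 11.95, 11.69 and 11.95 in heterozygotes and 11.99, 11.97, 11.94 and 11.95 in mutants after the fast. The groups overlapped in both states, and its differences were 0.17 ± 0.08 (adjusted p = 0.21) unfasted and 0.09 ± 0.08 (adjusted p = 0.45) fasted. Ctsb, a broad cysteine protease, differed by 0.03 ± 0.08 and 0.05 ± 0.08, Tpp1, a tripeptidyl peptidase, by 0.23 ± 0.09 and 0.27 ± 0.09, and Ctsa, which also shields Neu1 and beta-galactosidase, by 0.33 ± 0.11 and 0.09 ± 0.11. None of the 3 passed in either state.

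The soluble helpers had positive differences in both states, past the test for Npc2 and Grn when unfasted. Npc2 binds cholesterol in the lumen and hands it to Npc1. It read 8.92, 8.87, 8.82 and 8.86 in unfasted heterozygotes and 9.23, 9.03, 9.53 and 9.20 in unfasted mutants. It read 9.01, 8.96, 8.63 and 8.89 in heterozygotes and 9.14, 9.12, 9.15 and 9.16 in mutants in the fasted groups. It rose by 0.38 ± 0.09 (adjusted p = 0.02) unfasted, a call lost without unfasted mutant replicate 3 or heterozygous replicate 3 or 4, and its fasted difference was 0.28 ± 0.09 (adjusted p = 0.062). Psap, the precursor of the saposins that present lipids to hydrolases, read 12.33, 12.45, 12.33 and 12.17 in unfasted heterozygotes and 12.40, 12.33, 12.59 and 12.46 in unfasted mutants. It read 12.44, 12.50, 12.31 and 12.46 in heterozygotes and 12.61, 12.43, 12.54 and 12.39 in mutants after the fast. Its groups overlapped in both states, with differences of 0.12 ± 0.07 and 0.06 ± 0.07.

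Grn encodes progranulin, a secreted and lysosomal glycoprotein. It read 11.59, 11.31, 11.10 and 11.09 in unfasted heterozygotes and 11.70, 11.62, 11.84 and 11.93 in unfasted mutants, then 11.88, 11.76, 11.84 and 11.64 in fasted heterozygotes and 12.00, 12.17, 12.05 and 11.69 in fasted mutants. The unfasted heterozygotes were the low group, below every array of the other 3 groups. Grn rose by 0.50 ± 0.12 (adjusted p = 0.016) in unfasted mutants, a call lost without unfasted heterozygous replicate 3 or 4. Its fasted difference was 0.20 ± 0.12 (adjusted p = 0.27).

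Tfeb was not called between genotypes in either state. The gene read 8.84, 8.73, 8.64 and 8.67 in unfasted heterozygotes, 8.73, 8.77, 8.75 and 8.62 in unfasted mutants, 8.74, 8.76, 8.69 and 8.68 in fasted heterozygotes and 8.62, 8.56, 8.58 and 8.59 in fasted mutants. Its difference was 0.00 ± 0.06 unfasted (95% interval -0.12 to 0.12). Fasted, it was -0.13 ± 0.06 (95% interval -0.24 to -0.01, adjusted p = 0.14). Between fasted and unfasted mutants it was -0.13 ± 0.06 (95% interval -0.24 to -0.01, adjusted p = 0.19). The fasted genotype groups did not overlap. TFEB is controlled largely by phosphorylation and its place in the cell, which arrays do not measure.

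Set side by side, hydrolases and membrane proteins had close medians when unfasted, and the membrane proteins had the higher median when fasted and the wider range. In the unfasted comparison the 22 hydrolases had a median of 0.12, with 4 higher and 2 lower (27.3%), and the 9 membrane proteins a median of 0.11, with 1 higher and 2 lower (33.3%). In the fasted comparison the hydrolase median was 0.13 with 5 higher and 1 lower (27.3%), and the membrane median 0.23 with 4 higher and 1 lower (55.6%). Fasted differences ran from -0.27 to 0.85 among hydrolases and from -0.17 to 2.22 among membrane proteins. The hydrolase median minus the membrane median was 0.01 unfasted and -0.10 fasted, beside an SD of 0.08 between arrays of a group for the same quantity per array, and no test was made of it. Leaving out 1 array moved the fasted value as far as -0.18 (fasted heterozygous replicate 3) or -0.03 (fasted mutant replicate 2). Class means were farther apart than medians: fasted, the mean level of the 9 membrane proteins was 10.18 ± 0.10 (SD over 4 arrays) in heterozygotes and 10.74 ± 0.12 in mutants, and that of the 22 hydrolases 10.22 ± 0.02 and 10.42 ± 0.07. Unfasted, the membrane mean was 10.22 ± 0.10 and 10.55 ± 0.15 and the hydrolase mean 10.19 ± 0.08 and 10.32 ± 0.05. The membrane mean includes Cd63 and Gpnmb, the genes with the widest fasted differences.

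Fasting itself called few of the genes. In mutants 3 of the 35 rose (8.6%) and none fell, where 3.35% of all genes were called and 2.33% were higher. Gaa was among them. It read 10.03, 10.00, 9.95 and 9.94 in unfasted and 10.46, 10.51, 10.35 and 10.27 in fasted mutants, which did not overlap, and rose by 0.41 ± 0.08 (adjusted p = 0.016). In heterozygotes it read 10.07, 10.10, 9.89 and 9.86 and 10.15, 10.39, 10.13 and 10.42, a difference of 0.30 ± 0.08 (adjusted p = 0.097). Gla read 8.49, 8.34, 8.55 and 8.78 in unfasted and 8.97, 9.10, 8.81 and 8.98 in fasted mutants and rose by 0.43 ± 0.10 (adjusted p = 0.034). In heterozygotes Gla read 8.64, 8.38, 8.90 and 8.70 and 8.72, 8.68, 8.67 and 8.69, a difference of 0.03 ± 0.10 (adjusted p = 0.96). The interaction of Gla was 0.39 ± 0.14 (adjusted p = 0.4), so a difference between genotypes in its response was not shown.

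Scarb2 also rose with the fast in mutants, by 0.26 ± 0.05 (adjusted p = 0.016), and its heterozygous difference was 0.11 ± 0.05 (adjusted p = 0.39). Unfasted mutants were its lowest group. For Npc1 the mean over 4 mutants was 11.50 ± 0.27 (SD) before and 11.96 ± 0.21 after the fast, a difference of 0.46 ± 0.12 (adjusted p = 0.055). The calls of Gaa, Gla and Scarb2 were all lost without fasted mutant replicate 2 and in a fit of only the 8 mutant arrays. That of Gla was also lost without unfasted mutant replicate 2 or 3 or fasted mutant replicate 1 or 4, and with a second quantile normalization (adjusted p = 0.081).

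In heterozygotes 1 of the 35 rose, Grn, by 0.51 ± 0.12 (adjusted p = 0.041), where 1.57% of all genes were called and 0.732% were higher. That call was lost on leaving out unfasted heterozygous replicate 2, 3 or 4, any fasted heterozygote or fasted mutant replicate 3, with adjusted p reaching 0.14, and with a second quantile normalization (adjusted p = 0.055). Hexa, Gaa and Npc1 had heterozygous differences of 0.32 ± 0.12, 0.30 ± 0.08 and 0.34 ± 0.12, none past the test. In the other direction, Asah1 and Ctsk differed by -0.41 ± 0.12 and -0.30 ± 0.11, also not past it. The median over the 35 was 0.03 in heterozygotes and 0.09 in mutants, against 0.01 and -0.01 for all genes. The fasting and genotype comparisons share arrays, so agreement between them is not independent.

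**Figure D3:**
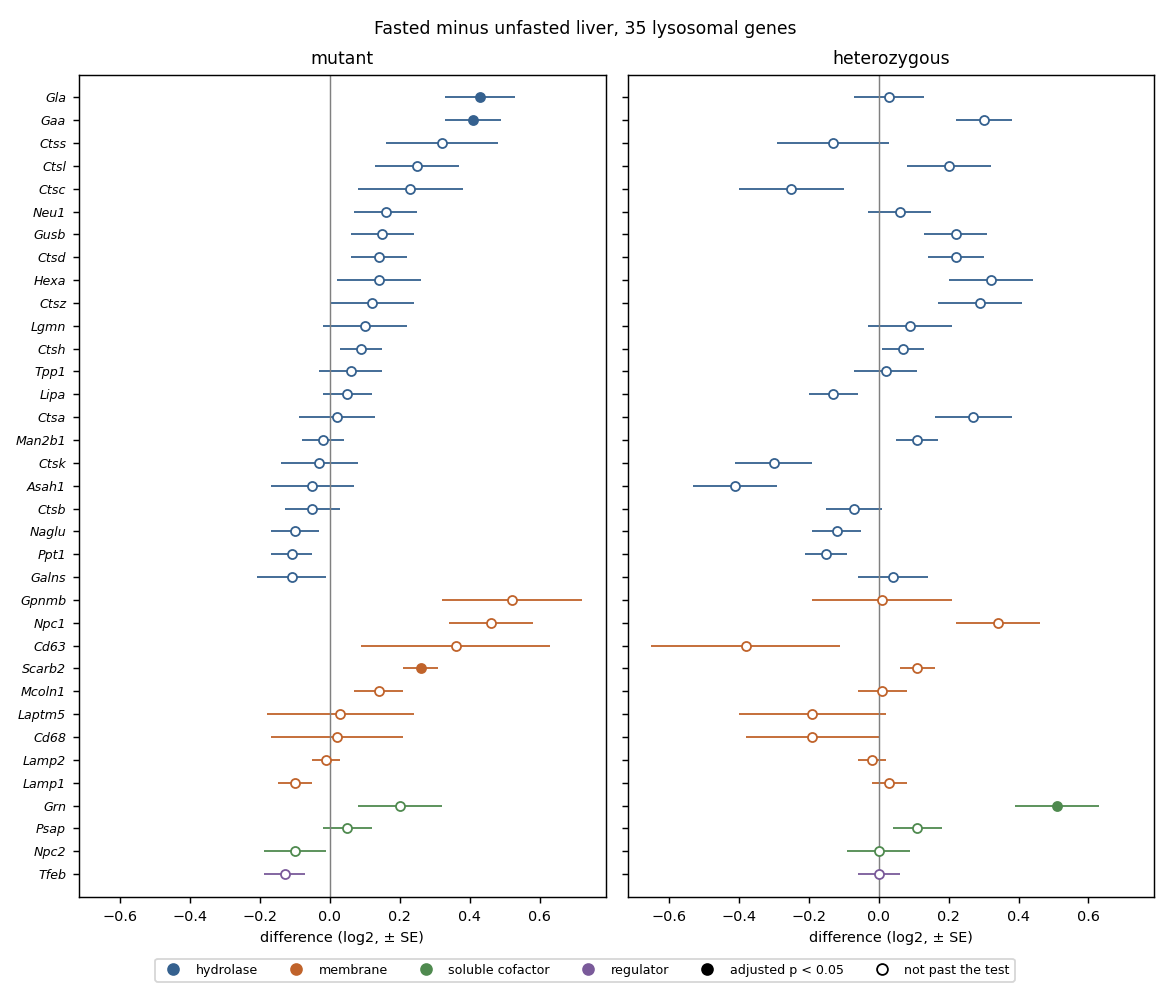
Difference between fasted and unfasted liver (log2 units, ± SE from the limma fit, 4 arrays per group) for the 35 genes, with mutants at left and heterozygotes at right, grouped by class and ordered by the mutant difference. Filled points passed an adjusted p of 0.05: Gaa, Gla and Scarb2 in mutants and Grn in heterozygotes.

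Lists of further lysosomal genes were counted in the same fit, where 7.94% of all genes were called unfasted and 13.6% fasted. These lists, and the cell type markers below, were also chosen with earlier results of these data known, so their shares only describe them. Of the proton pump in fasted mutants, 10 of 16 measured subunits and accessory proteins were higher and none lower (62.5%), with a median of 0.31. Atp6v1b2, Atp6v1c1 and Atp6v1a, subunits of the ATP-hydrolysing part, rose by 0.56 ± 0.11, 0.51 ± 0.12 and 0.44 ± 0.07, and Atp6ap2, an accessory protein, by 0.42 ± 0.10. In unfasted mutants 3 of 16 were higher (18.8%), led by Atp6v0d2, a membrane-part subunit known from macrophages and osteoclasts, at 1.81 ± 0.34 (adjusted p = 0.0053), which was 0.58 ± 0.34 higher in fasted mutants (adjusted p = 0.27). The fasted count was 5 on leaving out fasted mutant replicate 2 or replicate 3 of the fasted heterozygotes. It was 6 on leaving out fasted mutant replicate 1 or 4 or replicate 2 or 4 of the fasted heterozygotes. The unfasted count was 1 without unfasted heterozygous replicate 4.

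Of 24 other hydrolases, 2 were higher and 2 lower unfasted (16.7%) and 6 higher and 2 lower fasted (33.3%). Scpep1, a serine carboxypeptidase, rose by 0.45 ± 0.09 and 0.60 ± 0.09, and Dpp7, a dipeptidyl peptidase, by 0.42 ± 0.12 and 0.51 ± 0.12. Fuca1, alpha-fucosidase, fell by 0.47 ± 0.09 and 0.41 ± 0.09. Leaving out the array with acinar transcripts, or replicate 3 or 4 of the unfasted heterozygotes, left 2 of the 4 unfasted calls. Of 19 other lysosomal membrane proteins, 1 was called unfasted (5.3%), Abca2, a lipid transporter, which fell by 0.81 ± 0.11, and 3 were higher and 2 lower fasted (26.3%). The fasted count was 2 or 3 without fasted mutant replicate 1, 2 or 4 or heterozygous replicate 2, 3 or 4, and the unfasted count 2 without unfasted mutant replicate 3.

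Of 12 genes that deliver enzymes to lysosomes, 1 was higher unfasted (8.3%) and 4 fasted (33.3%), and none was lower. Cln6, an endoplasmic reticulum protein that aids the export of lysosomal enzymes, rose by 1.43 ± 0.21 (adjusted p = 0.00095) and 1.47 ± 0.21 (adjusted p = 0.00051). Sort1, sortilin, rose by 0.79 ± 0.17 and Igf2r, the large mannose 6-phosphate receptor, by 0.40 ± 0.11 in fasted mutants. The fasted count was 2 without fasted mutant replicate 1 or 2 or replicate 1 or 3 of the fasted heterozygotes, and the unfasted count 2 without unfasted mutant replicate 2.

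Of 17 genes of the MiT/TFE factors and the nutrient sensor mTORC1, 4 were higher in each state (23.5%) and none lower. Rragd, the GTPase RagD that brings TFEB and mTORC1 to the lysosome, read 6.64 to 6.77 in unfasted heterozygotes and 7.34 to 9.12 in unfasted mutants, and rose by 1.61 ± 0.34 unfasted (adjusted p = 0.010) and 1.53 ± 0.34 fasted (adjusted p = 0.0088). Mtor rose by 0.47 ± 0.11 and 0.69 ± 0.11. Tfec, a family member of macrophages, rose by 0.54 ± 0.16 in fasted mutants (adjusted p = 0.034). Mitf and Tfe3 differed by 0.05 ± 0.08 and 0.05 ± 0.08 unfasted and by 0.16 ± 0.08 and 0.15 ± 0.08 fasted, none past the test. The unfasted count was 1 without unfasted heterozygous replicate 3 or 4, and the fasted count 2 without fasted mutant replicate 2.

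Of 20 autophagy genes, 1 was higher and 1 lower unfasted and 1 higher fasted (10.0% and 5.0%, against 7.94% and 13.6% of all genes). Map1lc3b, the membrane-bound marker of autophagosomes, rose by 0.34 ± 0.09 in unfasted mutants and Atg5 fell by 0.39 ± 0.10. Of 14 tetraspanins other than Cd63, 3 were higher and 1 lower in each state (28.6%). Cd9 rose by 0.63 ± 0.19 and 0.71 ± 0.19, and Cd53, a tetraspanin of blood cells, by 0.91 ± 0.22 in fasted mutants. The tetraspanin count was 1 or 2 without unfasted mutant replicate 3 or heterozygous replicate 1, 3 or 4, and in the fasted comparison 2 without fasted mutant replicate 1 or 2 or heterozygous replicate 3. The unfasted autophagy count was 0 or 1 without unfasted mutant replicate 1, 2 or 3 or heterozygous replicate 3 or 4, and the fasted one was 0 without any 1 of 12 arrays.

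Fasting called at most 2 genes of each of these lists, where 3.35% of all genes were called in mutants and 1.57% in heterozygotes. In mutants, Idua and Dnase2a among the other hydrolases (8.3% of 24) rose by 0.46 ± 0.10 and 0.40 ± 0.10. Tmem192 and Hgsnat among the membrane proteins (10.5% of 19) rose by 0.30 ± 0.08 and 0.25 ± 0.06. Mtor (5.9% of its 17) rose by 0.43 ± 0.11 and Gabarapl2, an autophagosome protein (5.0% of 20), by 0.30 ± 0.08. In heterozygotes Map1lc3b rose by 0.48 ± 0.09 and Abcd4, a vitamin B12 transporter, by 0.35 ± 0.06, while Sort1 fell by 0.69 ± 0.17 and Abca2 fell by 0.54 ± 0.11. These were 5.0% of the autophagy genes, 10.5% of the membrane proteins (Abcd4 and Abca2) and 8.3% of the genes that deliver enzymes. Of the proton pump and the tetraspanins limma called none in either genotype, where an unadjusted p under 0.05 was met by 7 pump genes in mutants, all higher, and by 1 higher and 1 lower in heterozygotes. For tetraspanins it was met by 2 higher and 1 lower in mutants and by 0 in heterozygotes. Of all 19938 genes, 2327 were higher and 2101 lower at that threshold in mutants, and 1265 higher and 1179 lower in heterozygotes.

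**Figure D4:**
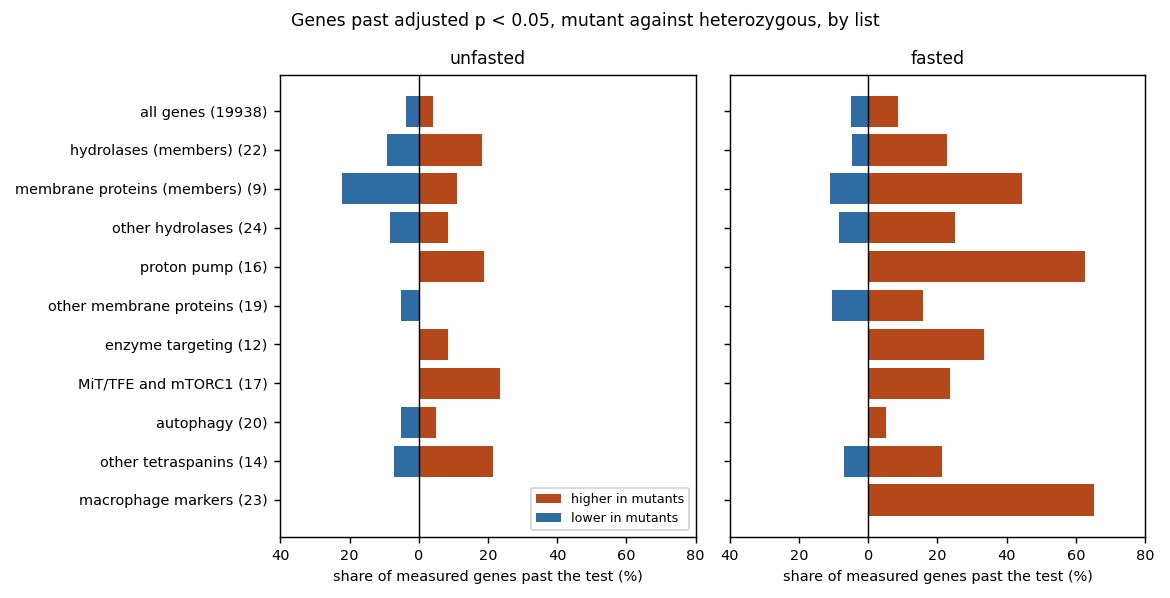
Share of the measured genes of each list (number of genes in brackets) past an adjusted p of 0.05 between mutant and heterozygous liver, higher in mutants to the right and lower to the left, unfasted and fasted. All genes are at the top, at 4.25% and 3.69% unfasted and 8.62% and 5.01% fasted, and the proton pump reaches 62.5% and the macrophage markers 65.2% when fasted.

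Markers of other liver cells were counted in the same way, beside 7.94% of all genes called unfasted and 13.6% fasted. Of 23 macrophage markers, 15 were higher in fasted mutants and none lower (65.2%), with a median of 0.64. Their mean level was 8.78 to 9.09 in fasted mutants and 8.22 to 8.60 in fasted heterozygotes, which did not overlap. Clec4f, a Kupffer cell lectin, rose by 0.82 ± 0.16 and Vsig4, a complement receptor of these cells, by 0.91 ± 0.20. Unfasted, limma called none of the 23 (8 were higher at an unadjusted p under 0.05), with a median of 0.28 and 22 of 23 positive. Of all 19938 genes, 2328 were higher and 2025 lower at that threshold when unfasted. Leaving out unfasted mutant replicate 4 gave 4 called markers, and leaving out replicate 1 of that group or weighting arrays gave 1. The unfasted mean was 8.43 to 8.93 in mutants and 8.24 to 8.63 in heterozygotes. For the interaction limma called none of the 23, with 3 higher at an unadjusted p under 0.05, beside 1051 higher of all 19938 genes.

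Of 15 endothelial markers, 11 were higher and none lower in each state (73.3%), where 7.94% of all genes were called unfasted and 13.6% fasted. Their mean levels were 9.60 to 9.75 in unfasted mutants against 9.06 to 9.42, and 9.63 to 9.81 in fasted mutants against 9.16 to 9.36. Stellate cell markers were higher for 9 of 14 unfasted (64.3%) and 4 of 14 fasted (28.6%). The endothelial count was 5 without unfasted heterozygous replicate 3 and, fasted, 6 without fasted mutant replicate 1 or heterozygous replicate 4. The unfasted stellate count was 4 or 5 without unfasted heterozygous replicate 3 or 4, and the fasted one 1 or 2 without fasted mutant replicate 1 or 2 or heterozygous replicate 1, 2 or 4. The part of these cell types in the lysosomal results was not tested. Of 11 hepatocyte markers limma called none in either state, and their mean was 12.70 to 12.96 in unfasted mutants and 12.88 to 12.97 in unfasted heterozygotes. In the fasted groups it was 12.85 to 12.88 in mutants and 12.96 to 13.01 in heterozygotes. At an unadjusted p under 0.05, 1 was higher and 2 lower unfasted and 4 were lower fasted. Of all 19938 genes, 2328 were higher and 2025 lower unfasted at that threshold, and 2845 lower fasted. Of 10 pancreas markers none was called, nor any at an unadjusted p under 0.05. Of 5 adipose markers 1 was called, Fabp4, which rose by 1.09 ± 0.30 in fasted mutants, a call lost without fasted heterozygous replicate 1, 2 or 3. Fabp4 read 10.28 in fasted mutant replicate 1 and 8.12 to 8.75 in the other 3, and 2 adipose markers were called without that array. Of 11 neutrophil markers 1 was called unfasted (S100a9, 0.22 ± 0.05), or 9.1% against 7.94% of all genes. Of 11 lymphocyte markers 2 were called fasted (Ms4a1, 0.41 ± 0.10, and Cd3d, -0.17 ± 0.05), or 18.2% against 13.6% of all genes. The neutrophil count was 0 without unfasted heterozygous replicate 2 or 3, 2 without unfasted mutant replicate 3 or fasted mutant replicate 1, and 3 without unfasted mutant replicate 4. The lymphocyte count was 5 without unfasted mutant replicate 3 and 1 without fasted mutant replicate 1 or 2 or heterozygous replicate 4.

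**Figure D5:**
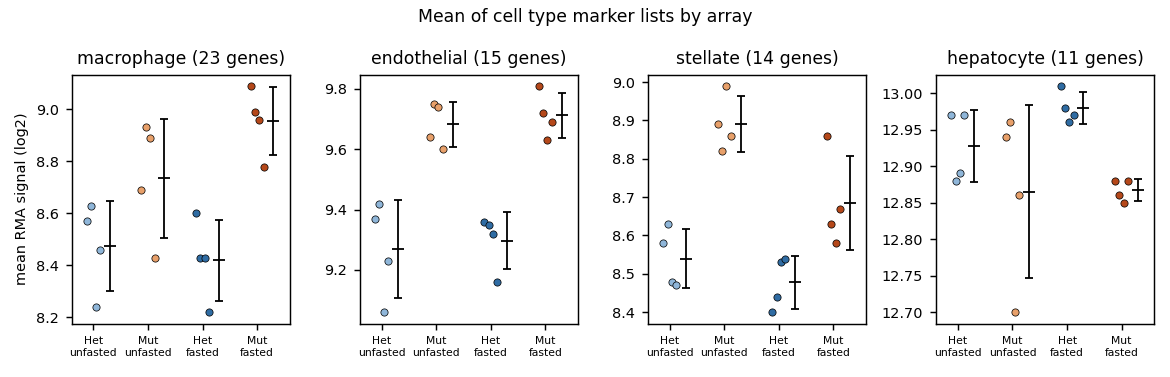
Mean level of 4 lists of cell type markers on each array (RMA signal, log2 units; each panel has its own range), with 4 livers per group as points and the group mean ± SD beside them. Macrophage markers average 8.78 to 9.09 in fasted mutants and 8.22 to 8.60 in fasted heterozygotes, and overlap between genotypes when unfasted.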

How the data were processed

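Liver RNA of 16 mice was hybridized to Affymetrix Mouse Gene 1.0 ST arrays, 300 ng of RNA each per the labels' protocols. The authors deposited RMA values made with Affymetrix Expression Console, per the submitters' processing notes; versions, build and filters are not given in the sources used here. The deposited values were taken as log2 from their range of 3.80 to 14.33. They hold no detection calls, and the precision is limited by the number of arrays. Of 35556 probe sets, the 21789 with 1 gene symbol were used (21698 updated through RefSeq gene numbers), the brightest over 16 arrays per gene, which left 19938 genes. Each of the 35 genes has 1 probe set. No filter on dim genes was used.

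limma 3.58.1 in R 4.3.3 fitted 1 mean per group to all 16 arrays, with moderated variance on an intensity trend, two-sided tests and Benjamini-Hochberg adjustment over all genes for each of 5 contrasts. The fit was tested on simulated data. The lists and motifs describe and carry no test. Alternatives were a replicate block, only the arrays compared, array weights, 2 rescalings, 2 variance settings, probe set means, a brightness filter, a 1.5-fold minimum, a threshold of 0.01 and leaving out each array. The genes, lists and motifs were chosen with earlier results of these data known, as were the classes. Genes were named by a rule: each of the 35, with values per array for those called in any contrast and for Lamp1, Lamp2, Ctsd, Psap and Tfeb, and up to 4 called genes per further list with the largest differences; Mmut, albumin, Mitf and Tfe3, and values of list genes in contrasts where they were not called, were added after their values were seen.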

Additional observations from a re-analysis of the deposited data

Results flagged for a closer look

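In 4 of the 140 combinations of gene and group, 1 liver stood far from the other 3 of its group by Dixon's ratio, and chance gives about 1 in 20 such groups. Gpnmb read 7.88 in unfasted mutant replicate 3 against 6.95 to 7.07 in the other 3 mutants of that group. Ctsl read 12.28 in fasted heterozygous replicate 3 against 11.84 to 11.86. Ctsa read 11.67 in fasted heterozygous replicate 4 against 11.54 to 11.56. Scarb2 read 11.06 in unfasted mutant replicate 1, the array with acinar transcripts, against 10.94 in the other 3.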

How the results depend on the processing

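None of the 35 genes reversed a called difference under any alternative run. Counts of called genes changed by more than 1.5 times as follows; the unfasted genotype, fasted genotype, heterozygous fasting and mutant fasting counts were 11, 11, 1 and 3. With a threshold of 0.01 they were 3, 6, 0 and 0, and with a 1.5-fold minimum 3, 7, 0 and 0, by construction of these stricter rules. With only the 8 arrays compared the unfasted count was 3 and the mutant fasting count 0, while the fasted count was 15. Over all genes, these fits called 764 unfasted and 33 for mutant fasting, where the main fit called 1584 and 667. They called 3026 fasted and 568 for heterozygous fasting, where the main fit called 2716 and 313. The cause was not tested. Array weights gave 5 for heterozygous fasting and a second quantile normalization 0; the cause was not tested. Leaving out each array gave 4 to 12, 10 to 13, 0 to 1 and 0 to 4. The interaction count was 0 in every alternative but the fits of 8 arrays, which cannot give it. With the replicate number as a block (replicate block) the counts were 11, 10, 1 and 3, with Ctsl no longer called in fasted mutants (adjusted p = 0.056), and the unfasted neutrophil marker count went from 1 to 5 and the macrophage one from 0 to 1. Arrays that share a number had correlated deviations between -0.12 and 0.252, not all above 0.1, so the numbers were not taken to pair the mice. The hydrolase median minus the membrane median moved by at most 0.08, its SD. Fasted, it went from -0.10 to -0.18 without fasted heterozygous replicate 3 and to -0.03 without fasted mutant replicate 2. It was -0.04 without fasted heterozygous replicate 4, and also on genes above median brightness. For mutant fasting it went from -0.05 to 0.03, with the sign turned, on genes above median brightness. With 4 arrays per group, small changes such as those of Lamp2 rest on tight groups.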
